A study of Mus musculus with 6 samples.

Results

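The 42 genes described here encode the parts that build and guard the primary cilium, the single non-motile antenna that most bone and cartilage cells carry. They were chosen by name and role, and all 42 are among the 23170 genes of the authors' deposited table. By role they are 11 subunits of the IFT-B complex, 6 of the IFT-A complex, 4 motor subunits, 8 genes of the BBSome and its chaperonins, 5 genes for membrane cargo and its small GTPases, and 8 genes of the transition zone. Intraflagellar transport (IFT) moves protein trains along the cilium: kinesin-2 motors carry IFT-B and its cargo to the tip, and dynein-2 with IFT-A brings them back. The BBSome takes membrane proteins out of the cilium, and the transition zone is the gate at its base that decides what enters. Hedgehog signalling in vertebrates runs through the cilium, since its receptor, its transducer Smo and its Gli factors pass along it, and loss of transport or gate genes can cause skeletal disease.

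RNA was sequenced from bone beneath the joint surface of the mouse mandibular condyle, the end of the lower jaw in the temporomandibular joint. The labels give 3 libraries of partial discectomy, the removal of part of the joint disc, and 3 of sham surgery. All mice were wild type, surgery was on 1 side, and tissue came from the operated joint. The age label of both groups gives 6 weeks and then 2 weeks, with prefixes that are not spelled out. The sample descriptions end in LPD and in Rctrl, which are not explained, so whatever else these letters stand for cannot be told apart from the surgery. Whether each library stands for its own mouse is not in the labels, so the spread may be partly technical.

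The deposited table holds the mean of each group, not the value of each library. Its headers call the totals and highest values counts, but the unit after normalization is not named. The smallest value in it is 1, called the floor here. A ratio divides the partial discectomy mean by that of sham without removing the floor, and its 95% limits and p-values are the authors' from a model that is not named. Whether the levels are per length is not known, so genes are compared by their ratios between groups. Levels of different genes and sums over a list are given as description only. The table also gives the highest of the 6 library values and their geometric mean. With both group means, these decided for 26 of the 42 genes which group held the highest library, and set bounds on the other libraries. Bone markers were present: all 12 were above the floor, with summed means above it of 60971 after partial discectomy and 47252 in sham. Those sums are mostly collagen genes. Of the 12 bone ratios 11 were above 1, against 62.7% of all genes, with a median of 1.58. No bone marker had an unadjusted p under 0.05. Cartilage markers were present too, with sums of 4844 and 4200. Of these 6 markers 5 had a ratio below 1, Col2a1 was the 1 above, and none had an unadjusted p under 0.05. Blood cell markers were higher after partial discectomy, as 11 of 11 neutrophil genes and 9 of 9 red cell genes had an unadjusted p under 0.05 towards higher. The summed neutrophil means above the floor were 1442 after partial discectomy and 108 in sham, the red cell sums were 240 and 12.7, and no marker of either list lay at the floor. Of 8 B cell markers 7 and of 6 endothelial markers 1 had an unadjusted p under 0.05, and every ratio of both lists was above 1. Limits of 2 of those 7 B cell genes included 1. Over all genes 62.7% had a ratio above 1 and 10.9% were higher at an unadjusted p under 0.05. No fibroblast, tendon or skeletal muscle marker had such a p. Fibroblast and tendon ratios were below 1 for 6 of 9 genes, with sums of 7095 and 9050 that are mostly collagen and matrix genes, and muscle ratios for 7 of 7, with sums of 140 and 204. The part of these shifts in the cilium results was not tested. In bulk tissue fewer cells of a type and less RNA per cell cannot be told apart.

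Letters of the promoter are shown first, because the choice of genes did not use them. RFX transcription factors are the known activators of cilium genes, and their X-box is a pair of half-sites that face each other. It was searched on both strands as 2 half-sites of 6 letters with 0 to 3 letters between them, in windows of 250 bases before to 50 after the gene start (RefSeq, GRCm38.p6). Windows were found for 37 of the 42 genes. An X-box stood in 5 of them (13.5%), against 231 of 13261 genes of the table with a window (1.74%). The 5 are Ift57, Bbs1 and all 3 tectonins, Tctn1, Tctn2 and Tctn3, and their sites follow with the X-box in capitals and at most 8 bases on either side.
Ift57, chr16:49699226-49699254, plus strand: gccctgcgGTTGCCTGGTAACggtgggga
Bbs1, chr19:4906605-4906634, minus strand: ctgagctgGTTGCCAAGGCGACgcctggga
Tctn1, chr5:122264411-122264432, minus strand: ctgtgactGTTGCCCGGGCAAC
Tctn2, chr5:124598679-124598708, plus strand: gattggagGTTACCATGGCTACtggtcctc
Tctn3, chr19:40612351-40612379, minus strand: tcccagcgGTTGCCAGGTAACgggaacca
The Ift57, Tctn2 and Tctn3 sites begin 60, 62 and 140 bases before the RefSeq start. Those of Bbs1 and Tctn1 begin 1 and 36 bases after it. The authors' gene model of Ift57 starts further upstream, at 49699233, so the Ift57 site shown lies inside that model. A second Ift57 match begins 87 bases before the RefSeq start.

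The shorter half-site GTTGCC, on either strand and X-boxes included, was in 16 of the 37 windows (43.2%), against 14.8% of the 13261 genes. Of the genes that the expression results below turn on, Ift140 and Dync2h1 held such a half-site, shown in capitals as it reads on the gene's own strand.
Ift140, chr17:25015965-25015994, plus strand: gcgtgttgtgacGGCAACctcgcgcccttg
Dync2h1, chr9:7177009-7177034, minus strand: gcgacggagcttGGCAACtgctgagt
Cc2d2a, Ift20 and Rpgrip1l had a window with neither. The 5 genes with an X-box had a median log2 ratio of -0.19 and the other 32 with a window one of -0.16. A match of letters is not a measured binding site. Divergent neighbours were common too: 12 of the 42 genes (28.6%) had a gene on the opposite strand that starts within 1000 bases upstream, against 11.0% of the 15397 protein-coding genes. For Ift20 that neighbour is Tnfaip1, and for Dync2h1 it is Dcun1d5. The promoter window of Dync2h1 is at the RefSeq start, which lies inside the table's longer gene model. Dcun1d5 starts within 1000 bases of that model's own start, but not of the RefSeq start.

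Transport and gate genes of the cilium were expressed in both groups and none passed the adjusted threshold between them. At an adjusted p under 0.05 (Benjamini-Hochberg over all genes) 0 of the 42 were called by the authors' deposited table, which called 2.38% of its genes. The smallest adjusted p among them was 0.269. At an unadjusted p under 0.05 Cc2d2a was the 1 lower gene and 0 were higher, beside 3.31% of all genes lower and 10.9% higher. Most ratios were below equality: 34 of 42 were below 1, against 37.3% of all genes. The median log2 ratio of the 42 was -0.15, with a range of -0.59 to 0.50, and that of all genes was 0.08. Set against that median of all genes, 37 of the 42 were below. The members lay closer together than genes at large, with a distance between quartiles of 0.21 against 0.36 on the log2 scale. Among genes averaging at least 5 above the floor it was 0.26 against 0.36. Of the other cilium lists given below, some were about as narrow, such as basal body genes at 0.22. Others were wider, such as disassembly genes at 0.54.

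The 95% limits show how large a change these libraries leave possible in values with the floor included. The floor draws ratios and limits of low genes towards 1, and limits without it were not computed. For 40 of the 42 genes the deposited limits lay inside a halving and a doubling, against 81.8% of all genes. The exceptions were Cc2d2a, whose lower limit was 0.472, and Ift20, whose upper limit was 2.12, in the authors' deposited table. A rise of 1.5-fold lay outside the limits of 37 genes (88.1%, against 59.5% of all genes), and an equally large fall outside those of 20 (47.6%, against 79.9%). Precision was like that of other genes, with a median ratio of upper to lower limit of 1.92 against 1.86. On levels, 33 of the 42 averaged at least 5 above the floor, and none was within 0.1 of the floor.

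**Figure D1:**
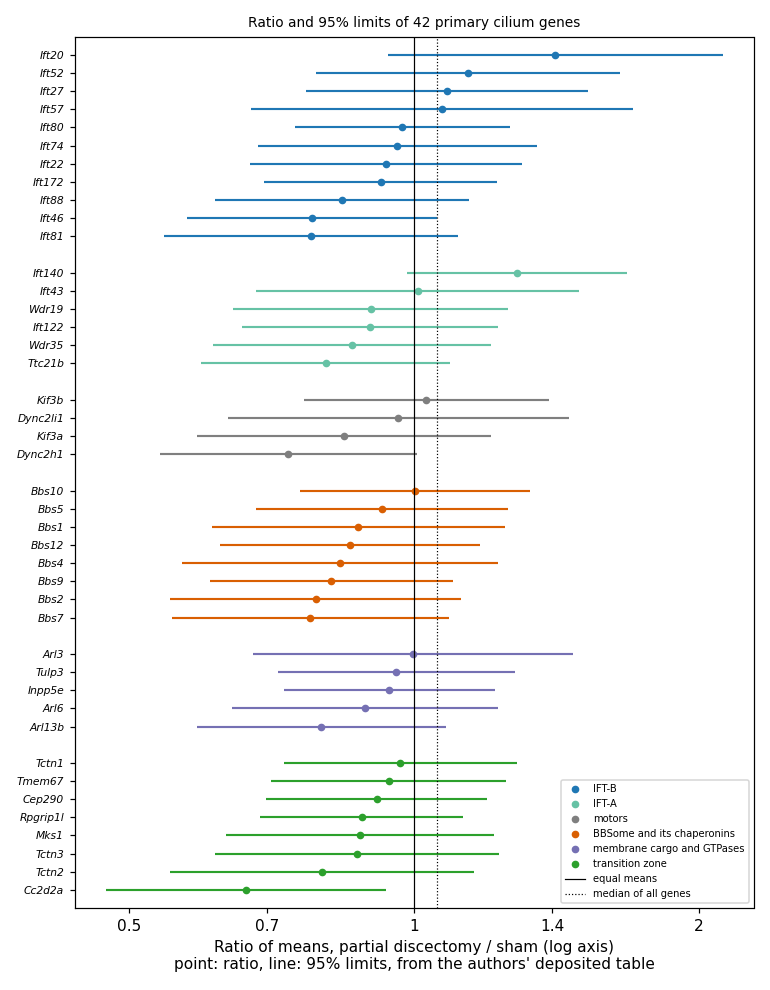
Each point is the ratio of the partial discectomy mean to the sham mean of 1 gene on a log axis, and its line spans the 95% limits of the authors' deposited table, with genes grouped by role and ordered within a role. Of 42 points 34 lie left of the solid line of equal means, and only the line of Cc2d2a stays on 1 side of it.

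IFT-B, the complex that enters the cilium with its cargo, was split: 4 of its 11 genes had a ratio above 1 and 7 below, with a median log2 ratio of -0.06 and no call. Ift20, the subunit that also sits at the Golgi and helps send membrane cargo to the cilium (chromosome 11, 78536361 to 78541737, mm10), had the highest ratio of all 42 genes. Its mean was 21.5 after partial discectomy and 15.2 in sham in the authors' deposited table. That is a ratio of 1.41 (95% limits 0.939 to 2.12, adjusted p = 0.451, all as the authors' deposited table lists them). The highest library, at 26.8, was a partial discectomy library with 41.5% of its group's total, where an even split gives 33.3%. Leaving out the highest value of a group, here and below, can only lower that group's mean, and no other library could be left out. Without the highest library of Ift20 the ratio was 1.24, and the groups may overlap, since a sham library could have reached 21.0 and a partial discectomy library could have been as low as 13.0.

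The lowest ratios of the complex were those of Ift81 and Ift46. Ift81 pairs with Ift74 to bind tubulin, and had means of 8.02 and 10.3 and a ratio of 0.778 (0.544 to 1.11, adjusted p = 0.513), as the authors' deposited table lists them. Ift46, a core subunit, had means of 16.5 and 21.1 and a ratio of 0.781 (0.576 to 1.06, adjusted p = 0.436), as the authors' deposited table lists them. For both genes the highest library was in sham, and without it the ratios were 0.819 and 0.807. Ift74, the partner of Ift81, had a ratio of 0.961 (0.685 to 1.35) in the authors' deposited table. Limits of both partners include 1 and each other's ratio.

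The 7 remaining IFT-B genes had ratios between 0.840 and 1.14, from the authors' deposited table. Ift88, without which cilia do not assemble, had means of 8.44 and 10.0 and a ratio of 0.840 (0.616 to 1.14) in the authors' deposited table. Its antisense neighbour Ift88os overlaps it, and whether reads were counted by strand is not given in the sources used here. Ift80 and Ift172, in which mutations cause skeletal ciliopathies in people, had ratios of 0.973 (0.748 to 1.26) and 0.923 (0.695 to 1.23), from the authors' deposited table. The small GTPases Ift22 and Ift27, the latter of which works in BBSome export, had ratios of 0.934 and 1.08, from the authors' deposited table. Ift52, another core subunit, had a ratio of 1.14 (0.788 to 1.65), and Ift57, which binds Ift20, one of 1.07 (0.672 to 1.70), in the authors' deposited table. Without their highest partial discectomy library Ift52 went from 1.14 to 0.941 and Ift27 from 1.08 to 0.981.

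In IFT-A, the complex of the return trip, 2 of 6 genes had a ratio above 1 and 4 below, with a median log2 ratio of -0.15 and no call. Ift140, a core subunit (chromosome 17, 25016085 to 25099495, mm10), had the highest ratio of the 6. Its mean was 20.5 after partial discectomy and 15.9 in sham, and its ratio 1.29 (0.984 to 1.68, adjusted p = 0.378), as the authors' deposited table lists them. The 3 partial discectomy libraries lay above the 3 sham libraries: from the deposited sums and geometric mean the groups cannot overlap, although the p-value missed the threshold. The highest library, 21.4, held 34.9% of its group's total, close to an even split, and without it the ratio was 1.25. Ift140 was the 1 gene of the 42 (2.38%) shown to be higher in this way, beside 10.0% of all genes. The gene overlaps Tmem204 on the other strand.

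The other 5 IFT-A genes had ratios between 0.807 and 1.01, from the authors' deposited table. Ttc21b, which encodes a peripheral subunit needed for retrograde transport, had means of 12.0 and 14.9 and a ratio of 0.807 (0.596 to 1.09, adjusted p = 0.501), as the authors' deposited table lists them. Wdr35 and Ift122, also part of IFT-A, had ratios of 0.861 (0.614 to 1.21) and 0.898 (0.658 to 1.23), and Ift43 one of 1.01, in the authors' deposited table. Wdr19, a core subunit like Ift140, had means of 17.4 and 19.3 and a ratio of 0.901 (0.644 to 1.26) in the authors' deposited table. Its highest library, 25.3, was in sham with 43.6% of the group total, and without it the ratio was 1.07.

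Of the 4 motor subunits 3 had a ratio below 1, with a median log2 ratio of -0.15 and no call. Dync2h1, the heavy chain of dynein-2 that drives retrograde transport (chromosome 9, 6928503 to 7184446, mm10), had the second lowest ratio of all 42. Its mean was 33.5 after partial discectomy and 45.4 in sham, which gives a ratio of 0.737 (0.539 to 1.01, adjusted p = 0.398), as the authors' deposited table lists them. The highest library, 58.0, was in sham. The other sham libraries lay between 36.8 and 41.3 and the partial discectomy libraries between 31.3 and 35.7, so that the groups did not overlap. Without the highest library, which held 42.6% of the sham total, the ratio was 0.856.

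The light intermediate chain of the same motor, Dync2li1, had means of 3.29 and 3.41 and a ratio of 0.963 (0.636 to 1.46) in the authors' deposited table. Kif3a and Kif3b form the motor pair of kinesin-2. Their ratios were 0.844 (0.590 to 1.21) and 1.03 (0.765 to 1.39), from the authors' deposited table. Kifap3, the third part of that motor and no member of the 42, had means of 22.7 and 31.2, a ratio of 0.730 (0.536 to 0.994) and an adjusted p of 0.333, all from the authors' deposited table. The difference between Kifap3 and the Kif3 genes was not tested.

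**Figure D2:**
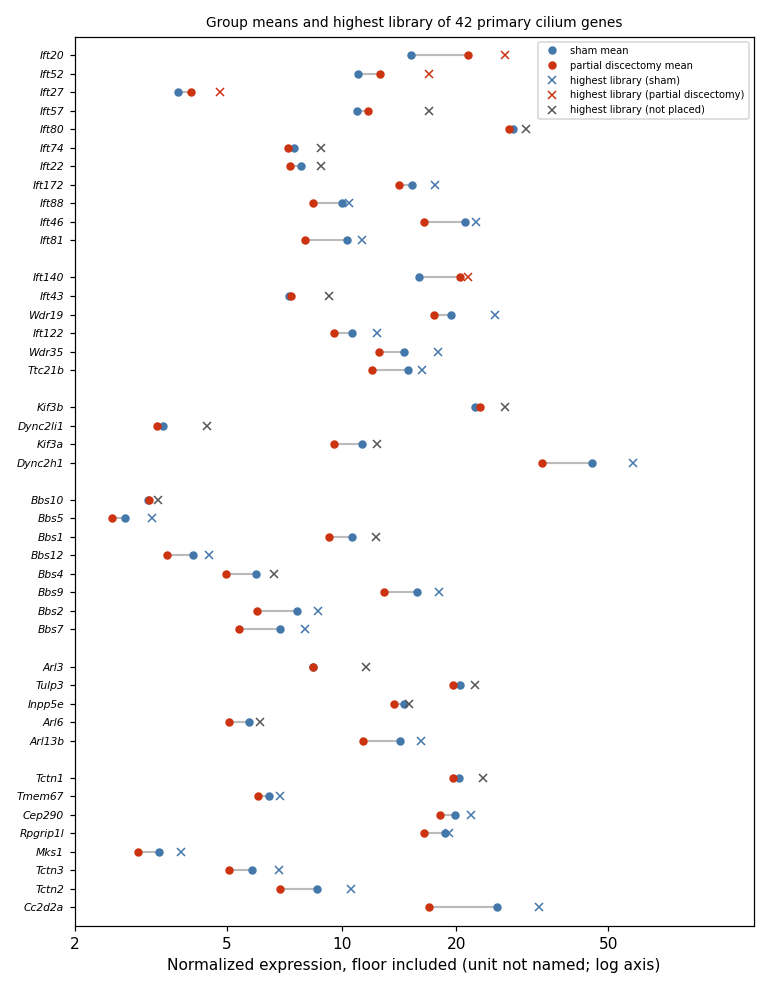
Filled points are the sham and partial discectomy means of each gene, floor included, on a log axis, and the cross is the highest of the 6 libraries, coloured by the group that must hold it or grey where that could not be decided. The cross is in sham for 22 genes and in partial discectomy for 4, by the method always the group with the higher mean. The widest gaps between means are those of Cc2d2a, Ift20 and Dync2h1.

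All 6 BBSome subunits among the 42 had a ratio below 1, and none passed the threshold. The median log2 ratio over the 8 genes, chaperonins included, was -0.24, and all 8 lay below the median of all genes. Bbs7, part of the BBSome core, was lowest, with means of 5.37 and 6.91 and a ratio of 0.777 (0.555 to 1.09, adjusted p = 0.501), as the authors' deposited table lists them. Its partners Bbs2 and Bbs9 had ratios of 0.787 (0.553 to 1.12) and 0.818 (0.608 to 1.10), from the authors' deposited table. All 3 had their highest library in sham, and without it their ratios were 0.845, 0.846 and 0.879. For Bbs4, Bbs1 and Bbs5 the authors' deposited table gave ratios of 0.836, 0.874 and 0.926. Bbs1 carries the contact to Arl6. Bbs5 went to 1.02 without its highest library, which was in sham.

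Of the chaperonin-like genes that assemble the BBSome, Bbs10 lay at equality and Bbs12 within the range of the subunits. Bbs10 had means of 3.13 and 3.12, a ratio of 1.00 (0.757 to 1.33, adjusted p = 0.995), as the authors' deposited table lists them. Bbs12 had means of 3.49 and 4.08 and a ratio of 0.856 (0.624 to 1.17) in the authors' deposited table, and it overlaps Cetn4 on the other strand. Ttc8, the BBSome subunit also known as Bbs8 and no member of the 42, had means of 5.38 and 7.85 and a ratio of 0.686 (0.496 to 0.947, p = 0.0252, adjusted p = 0.256), as the authors' deposited table lists them.

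The 5 genes that move membrane cargo all had ratios below 1, with a median log2 ratio of -0.09. Arl13b, a GTPase of the ciliary membrane that activates Arl3, was lowest, with means of 11.4 and 14.2 and a ratio of 0.798 (0.589 to 1.08, adjusted p = 0.507), as the authors' deposited table lists them. Its highest library was in sham, and without it the ratio was 0.856. Arl3, which releases lipid-anchored proteins inside the cilium, stood at 8.41 and 8.43, a ratio of 0.998 (0.677 to 1.47) in the authors' deposited table. Arl6, which recruits the BBSome to membranes, had a ratio of 0.889 (0.643 to 1.23) in the authors' deposited table. Inpp5e, a phosphoinositide phosphatase held in the cilium by Arl13b, had a ratio of 0.942 (0.728 to 1.22) in the authors' deposited table. Tulp3, which brings G protein-coupled receptors into the cilium with IFT-A, had one of 0.958 (0.718 to 1.28) in the authors' deposited table.

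The transition zone held the lowest gene of the 42, and all 8 of its genes had ratios below 1, with a median log2 ratio of -0.19 and no call. Cc2d2a, a scaffold of the gate (chromosome 5, 43662346 to 43740972, mm10), had a mean of 17.0 after partial discectomy and 25.6 in sham in the authors' deposited table. Its ratio was 0.664 (0.472 to 0.934, p = 0.0277, adjusted p = 0.269), as the authors' deposited table lists them. The highest library, 32.9, was in sham with 42.9% of that group's total. The other sham libraries lay between 18.5 and 25.3 and the partial discectomy libraries between 14.0 and 20.1. Although these ranges meet, they cannot all be reached at once, and the sums with the geometric mean leave no overlap between the groups. Without the highest library the ratio was 0.776.

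Rpgrip1l, which ties other gate proteins together at the base of the cilium, showed a small difference with little spread. Its means were 16.5 and 18.7, a ratio of 0.881 (0.688 to 1.13, adjusted p = 0.655), as the authors' deposited table lists them. The 2 sham libraries besides the highest, 19.1, were at least 17.5, the partial discectomy libraries at most 17.6, and the groups cannot overlap. Cc2d2a, Rpgrip1l and Dync2h1 were the 3 of 42 genes (7.14%) shown to be lower without overlap, beside 3.24% of all genes. Only 26 genes could be placed, so for the others overlap is not known.

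The tectonins, secreted or membrane proteins of the gate, all lay below 1. Tctn2 had a ratio of 0.799 (0.552 to 1.16), Tctn3 one of 0.871 (0.616 to 1.23) and Tctn1 one of 0.968 (0.729 to 1.28) in the authors' deposited table. Tctn1 overlaps Hvcn1 on the other strand. Mks1, part of the same gate complex, had means of 2.92 and 3.33 and a ratio of 0.878 (0.633 to 1.22) in the authors' deposited table. Tmem67, a membrane protein with a frizzled-like outer part, had a ratio of 0.941 (0.707 to 1.25), and Cep290, which links microtubules to the membrane at the gate, one of 0.913 (0.698 to 1.20), in the authors' deposited table.

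Other genes of the cilium, from lists of the same pathway, are given by counts at an unadjusted p under 0.05, at which 3.31% of all genes were lower and 10.9% higher. Of 15 further IFT and motor genes 1 was higher and 1 lower, Kifap3, and none was called. The higher one was Kif17, another kinesin-2, with means of 1.39 and 1.08 close to the floor of the authors' deposited table. Of 21 further genes of the transition zone and the inversin zone beside it 1 was higher and none lower, and the median log2 ratio was -0.06. That gene was Rpgrip1, a relative of Rpgrip1l, with a ratio of 1.52 (1.12 to 2.05, adjusted p = 0.189), as the authors' deposited table lists them. Of 9 further BBSome genes and partners 1 was lower, Ttc8. Of 19 basal body genes 1 was lower and none higher. It was Intu, which helps place IFT-A at the base, with means of 25.3 and 41.6 and a ratio of 0.609 (0.427 to 0.870, adjusted p = 0.172), as the authors' deposited table lists them.

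Partners of Arl3 had ratios on both sides of 1, without a call. Unc119, a carrier of myristoylated cargo that Arl3 unloads, had means of 4.95 and 2.31 and a ratio of 2.15 (1.41 to 3.26, adjusted p = 0.0722), as the authors' deposited table lists them. Cys1, a lipid-anchored protein of the ciliary membrane, had means of 11.8 and 17.7 and a ratio of 0.668 (0.464 to 0.963, adjusted p = 0.264), as the authors' deposited table lists them. Rp2, which switches Arl3 off, had a ratio of 1.31 (0.999 to 1.71) in the authors' deposited table. Of the 7 genes of this list 2 were higher and 1 lower at an unadjusted p under 0.05.

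Hedgehog pathway genes, not all of which work at the cilium itself, had a median log2 ratio of -0.19 over 18 genes. Of these, 13 ratios were below 1, and none was called. At an unadjusted p under 0.05 there were 4 lower and 0 higher, beside 3.31% and 10.9% of all genes. Gpr161, the receptor that holds the pathway off from within the cilium and that Tulp3 brings there, had the smallest p of them. Its means were 7.57 and 13.4 and its ratio 0.563 (0.403 to 0.788, adjusted p = 0.103), as the authors' deposited table lists them. Evc, part of a complex that passes on the signal of Smo near the gate, had a ratio of 0.690 (0.486 to 0.980, adjusted p = 0.318), as the authors' deposited table lists them. The other 2 were Hhip and Gli3.

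Among the cilium lists, that of disassembly was the only one with a call. Of 8 genes 7 had a ratio above 1, 3 were higher at an unadjusted p under 0.05, and 1 was called. Over all genes 62.7% had a ratio above 1, 10.9% were higher at that p and 2.38% were called. The called gene was Aurka, a kinase that triggers the loss of the cilium and also acts in mitosis, which rose from 2.76 to 6.52 in the authors' deposited table. That is a ratio of 2.36 (1.61 to 3.46, adjusted p = 0.0361), as the authors' deposited table lists them. Nek2 and Plk1, mitotic kinases as well, had ratios of 1.72 and 1.69 with adjusted p of 0.314 and 0.277, all from the authors' deposited table. Cell cycle markers were also higher after partial discectomy, with 7 of 7 higher at an unadjusted p under 0.05 and summed means above the floor of 494 and 188. Their part in the values of these kinases was not tested.

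Genes of motile cilia, which propel fluid and are not a feature of bone cells, were low with 1 exception. Of 22 motile cilium symbols 12 were in the table, with summed means above the floor of 7.56 after partial discectomy and 9.40 in sham. Ccdc39, which helps attach the inner dynein arms, gave most of the sham sum, with means of 4.02 and 6.27 (p = 0.120) in the authors' deposited table. Without it, a choice made after seeing the values, the sums were 4.54 and 4.13, so their order turned. Spef2 was the 1 gene of this list with an unadjusted p under 0.05, with means of 1.53 and 1.12 and a ratio of 1.36 (1.09 to 1.70, adjusted p = 0.176), from the authors' deposited table. Of 7 receptors and channels of the ciliary membrane 3 had a ratio above 1 and 4 below, with no p under 0.05. Among them Adcy6, an adenylyl cyclase, had a ratio of 1.19 and Sstr3, a somatostatin receptor, one of 0.786, from the authors' deposited table. The RFX factors, 5 of which were in the table, had ratios of 0.945 to 1.15 and no p under 0.05. Rfx3, an activator of cilium genes, had means of 15.4 and 16.3 in the authors' deposited table.

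**Figure D3:**
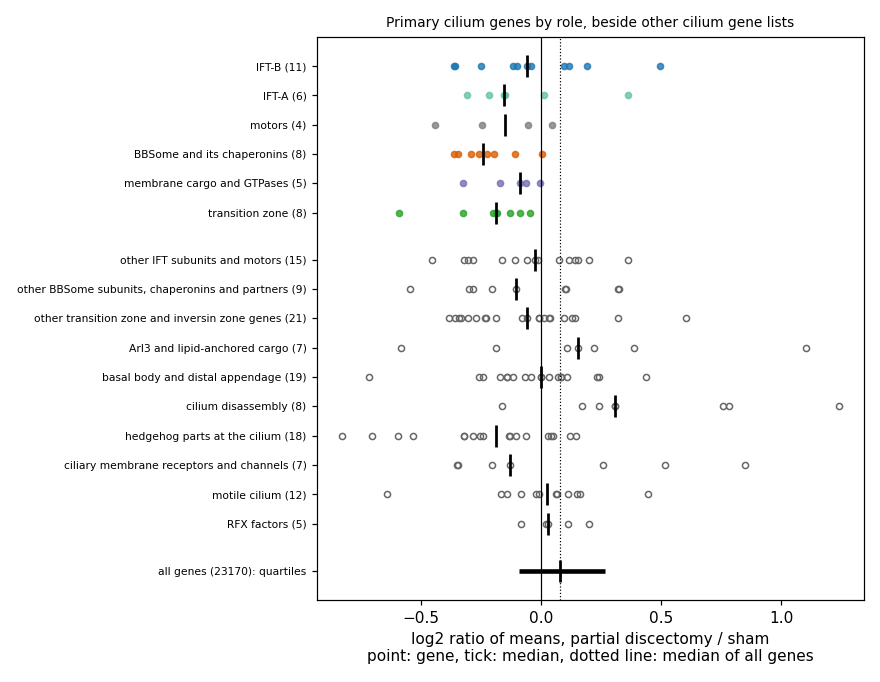
Each point is the log2 ratio of 1 gene, filled for the 42 transport and gate genes by role and open for other cilium lists, the tick is the median, and the bar at the bottom spans the quartiles of all 23170 genes. Medians of the 6 roles lie between -0.24 and -0.06, left of the dotted line at 0.08, while the disassembly list has a median of 0.31.

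Overlapping gene models touch 15 of the 42 genes (35.7%), against 39.4% of protein-coding genes, and reads there may belong to either gene. All 42 gene positions in the deposited table were those of GENCODE M21. Across the 26 genes whose highest library could be placed, that library was in sham for 22 and in partial discectomy for 4. The method can place it only in the group with the higher mean. These counts therefore follow the direction of the ratio and add nothing to it. The highest library held 34.0 to 45.0% of its group's total. Leaving it out turned the direction for Ift27, Ift52, Wdr19 and Bbs5.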

How the data were processed

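Of 2 deposited files 1 held values, a table by the authors comparing 3 partial discectomy with 3 sham libraries over 23170 genes, and the other held gene positions only. The submitters' processing notes name STAR 2.6.1d and mm10. How reads were counted and normalized, and the model used, are not stated in these sources, and depth is unknown. Per the file headers, the authors deposited group means, totals, highest values and geometric means (here a normalized signal), a ratio, its log2, a signed fold change with 95% limits (entered as a score and turned into ratios here), a p-value and an adjusted p. Of 3299 genes with an unadjusted p under 0.05, 114 had limits that include 1, none of them among the 42. Recomputed by Benjamini-Hochberg over all genes, the adjusted p was the deposited one.

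Which group held the highest library, and the bounds of the others, follow from both group means, the highest value and the geometric mean, taken as plain means of 3 libraries per group with none below 1. The procedure was tested on simulated data. The count test of the libraries foreseen for files with counts could not be run on group means. Promoter letters came from RefSeq. Genes, lists and tests were chosen with earlier results of these data known. The naming rule was every member, and up to 4 genes by smallest p, or called, of each other list. Python 3.11.15, pandas 2.3.3 and numpy 2.4.6 were used.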

Additional observations from a re-analysis of the deposited data

How the results depend on the processing

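The count of members called stayed at 0 at an adjusted p under 0.1 and when p-values were readjusted over protein-coding genes or over genes that lay at least 1 or 5 above the floor. The count at an unadjusted p under 0.05 was 1. By 95% limits set against the median of all genes it was 2, with Dync2h1 besides Cc2d2a, where 6.65% of all genes were lower, and against the log2 ratio of summed means (0.13) it was 6, all lower, where 9.74% of all genes were lower. The median log2 ratio of -0.15 became -0.18 with the floor subtracted, -0.23 and -0.29 relative to those 2 centres (37 and 39 of 42 below), and -0.075 without the highest value of each placed gene, an alternative added after seeing the data that removes mostly sham values. The number of promoters with an X-box, 5, was 3 before the start only and 16 for the half-site. The log2 ratio of the summed motile cilium means, -0.31, was 0.13 without Ccdc39, an alternative added after seeing the data. No paired analysis was possible because the table gives group means only, and leaving out each replicate was not run for the same reason.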
